A study of Homo sapiens with 10 samples.

Results

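Cathepsins are the main proteases of the lysosome. The 10 cathepsin genes described here, CTSA, CTSB, CTSC, CTSD, CTSH, CTSK, CTSL, CTSO, CTSS and CTSZ, were taken by gene symbol from a table of 33297 transcript clusters (the probe groups by which the array measures a gene), and each had 1 cluster. All 10 were among the 21214 clusters with a gene symbol that were tested, and no filter on low values was set. The cells were THP-1, an established human monocytic leukaemia line, turned into macrophage-like cells with PMA (phorbol 12-myristate 13-acetate, which makes monocytic cells attach and differentiate) for 24 h before 24 h of treatment. For the DMSO and punicalagin arrays PMA was used at 160 nM. Punicalagin, an ellagitannin of pomegranate, was used at 10 µM, and the controls received its vehicle, dimethyl sulfoxide (DMSO). There were 3 DMSO and 3 punicalagin arrays, of passages 6, 7 and 8 of the line (replicates 1, 2 and 3), and 2 arrays each for the flavonols myricetin and quercetin, of passages 7 and 8 (replicates 1 and 2). The labels give no dose for either flavonol, so differences between compounds are differences between these treatments at doses not known to match. All groups come from the same line and received PMA, and no group without PMA was analysed here.

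Cathepsins are made as inactive proenzymes, tagged with mannose 6-phosphate in the Golgi, carried by mannose 6-phosphate receptors and cleaved to the active form in acid compartments. In macrophages they degrade ingested and internal protein, trim antigens and the invariant chain for presentation, and can be secreted, where they cut matrix. By catalytic class CTSB, CTSC, CTSH, CTSK, CTSL, CTSO, CTSS and CTSZ are cysteine proteases, CTSD is an aspartic protease and CTSA is a serine carboxypeptidase. Cystatins inhibit the cysteine group. The transcription factors TFEB, TFE3 and MITF bind a promoter element with the core CACGTG that many lysosomal genes share.

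The RefSeq promoter table (GRCh38.p14) matched 6 of the 10 genes, CTSA, CTSC, CTSD, CTSH, CTSL and CTSZ. The 250 bases before the start site were searched on both strands for CACGTG, for the longer TCACGTGA that contains it, for CCAAT (the NF-Y box), for GGGCGG (the GC box bound by SP1) and for TGAGTCA (an AP-1 site, AP-1 being a known target of phorbol esters). Below are the promoters of CTSC and CTSL, members that passed the test with punicalagin, and of CTSA and CTSD, the members whose windows held CACGTG, each 5′ to 3′ with the matches in capitals.
CTSC, chr11:88337737-88337986, minus strand: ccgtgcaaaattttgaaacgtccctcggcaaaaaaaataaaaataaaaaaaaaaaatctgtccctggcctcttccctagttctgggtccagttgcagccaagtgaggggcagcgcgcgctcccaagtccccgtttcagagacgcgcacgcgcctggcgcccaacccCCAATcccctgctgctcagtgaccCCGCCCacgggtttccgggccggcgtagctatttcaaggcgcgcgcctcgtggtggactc
CTSL, chr9:87725869-87726118, plus strand: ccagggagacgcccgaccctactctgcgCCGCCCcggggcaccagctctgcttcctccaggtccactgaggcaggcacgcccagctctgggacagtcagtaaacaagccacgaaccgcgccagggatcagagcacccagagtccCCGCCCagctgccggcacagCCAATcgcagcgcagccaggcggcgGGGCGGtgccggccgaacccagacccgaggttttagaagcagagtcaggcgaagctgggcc
CTSA, chr20:45891085-45891334, plus strand: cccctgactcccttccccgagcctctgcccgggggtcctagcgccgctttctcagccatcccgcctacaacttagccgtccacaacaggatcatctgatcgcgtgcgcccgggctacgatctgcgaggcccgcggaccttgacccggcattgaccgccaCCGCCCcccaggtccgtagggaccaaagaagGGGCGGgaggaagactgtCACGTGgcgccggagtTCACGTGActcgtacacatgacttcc
CTSD, chr11:1763928-1764177, minus strand: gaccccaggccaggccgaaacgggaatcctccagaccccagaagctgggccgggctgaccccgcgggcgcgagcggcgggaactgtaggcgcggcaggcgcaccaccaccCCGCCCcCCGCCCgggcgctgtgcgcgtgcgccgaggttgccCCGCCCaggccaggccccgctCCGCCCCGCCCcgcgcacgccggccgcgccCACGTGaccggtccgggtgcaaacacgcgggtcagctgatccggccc
CACGTG stood in 2 of the 6 windows, against 6.34% of all 35116 promoters of the table. CTSA had 2 copies, which began 42 and 25 bases before the start site. The second lay inside the only TCACGTGA among the 6, a sequence found in 0.854% of all promoters. CTSD had 1 copy, which began 47 bases before the start. CCAAT stood in the windows of CTSC and CTSL, 84 and 86 bases before the start, and in 32% of all promoters. GGGCGG stood in all 6 windows and in 42.6% of all promoters, with 5 copies each in CTSD, CTSH and CTSZ. TGAGTCA stood in none of the 6 and in 4.2% of all. These matches describe the letters of the windows, and no binding was measured.

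On all 10 arrays 7 of 10 measured monocyte and macrophage markers (CD68, CSF1R, ITGAM, ITGAX, LYZ, SPI1 and PTPRC) lay above the upper quartile of the array, which was 6.73 to 6.85. The macrophage receptor MRC1 was dim, at 2.74 to 3.46. No T cell, B cell or fibroblast marker lay above the upper quartile on all arrays, while KRT18 of epithelium and PECAM1 of endothelium did. The levels of some markers moved with treatment. With punicalagin the summed log2 intensities of the T cell, B cell, fibroblast and epithelial markers overlapped those of DMSO. The macrophage sum with myricetin also overlapped that of DMSO. The summed log2 intensity of the 10 macrophage markers was 81.8 to 83.6 on the DMSO arrays, 85.3 to 92.2 with punicalagin, 82.6 to 84.1 with myricetin and 85.5 to 87 with quercetin. That of the 3 endothelial markers, of which PECAM1 is also made by monocytes, was 17.7 to 18.2 with DMSO, 20 to 20.3 with punicalagin, 19.3 to 19.4 with myricetin and 18.5 to 18.7 with quercetin. Their part in the cathepsin differences was not tested. In such bulk samples, more cells of a type and more RNA in each cell cannot be told apart. The DMSO array of passage 6 stood apart, with a mean correlation of 0.969 with the other arrays, against 0.977 to 0.983 for the rest.

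With punicalagin the cathepsin genes lay above DMSO in 9 of 10 cases, and 4 passed the test, all of them higher. These were CTSC, CTSZ, CTSL and CTSH, against 2.13% of all tested clusters that were called higher and 0.198% that were called lower. The median difference over the 10 genes was 0.84 on the log2 scale, beside -0.053 over all tested clusters. For 8 of the 10 (all but CTSK and CTSS) every punicalagin array lay above every DMSO array, which was so for 8.39% of tested clusters.

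**Figure D1:**
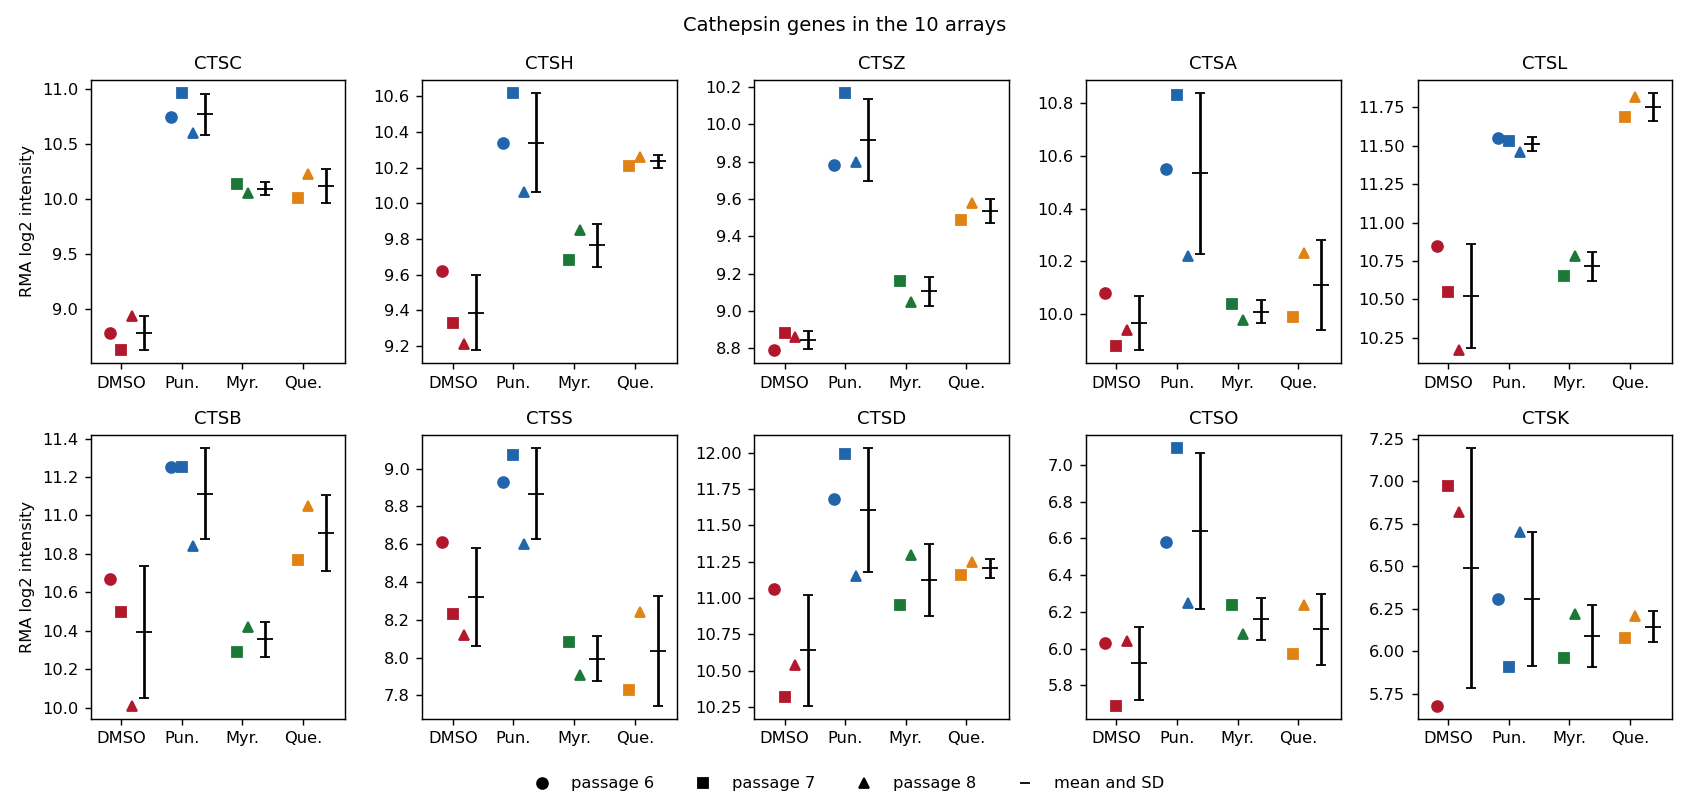
RMA log2 intensity of each cathepsin gene on the 10 arrays, with the marker shape giving the passage and the bars the mean and SD of each group (3 DMSO, 3 punicalagin, 2 myricetin and 2 quercetin arrays). Each panel has its own axis, which does not start at 0. CTSC on every compound array, at 10.01 to 10.97, lay above the DMSO arrays, at 8.62 to 8.93, while CTSK was spread from 5.68 to 6.97 among the DMSO arrays alone.

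Of the 10 genes, CTSC had the largest difference. Cathepsin C (dipeptidyl peptidase I) removes dipeptides from the amino end of proteins and thereby activates the serine proteases of neutrophil, mast cell and T cell granules. Its log2 intensity was 8.78, 8.62 and 8.93 on the DMSO arrays of passages 6, 7 and 8, and 10.75, 10.97 and 10.60 on the punicalagin arrays. The groups were far apart and each varied by less than 0.4. The mean rose by 2.0 ± 0.16 (SE, n = 3 and 3; 95% interval 1.64 to 2.35), which is 3.99-fold (adjusted p = 0.000838). This call held in all 14 alternative analyses by the same kind of test, with adjusted p from 2.85e-05 to 0.015. A plain equal-variance test of the groups, not among these 14, called 0 clusters higher and 0 lower after adjustment, so CTSC did not pass there.

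CTSZ, also called cathepsin X, removes single residues from the carboxyl end and is known to act on integrin tails in myeloid cells. Its log2 intensity was 8.79, 8.88 and 8.86 with DMSO and 9.78, 10.17 and 9.80 with punicalagin. The DMSO arrays lay within 0.1 of each other. CTSZ rose by 1.07 ± 0.15 (95% interval 0.73 to 1.42, 2.10-fold, adjusted p = 0.0097). The call again held in those 14 alternatives (0.000903 to 0.0499) and not by the equal-variance test after adjustment.

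CTSH acts mainly as an aminopeptidase and is known to process surfactant protein in the lung. It stood at 9.62, 9.33 and 9.21 with DMSO and at 10.34, 10.62 and 10.06 with punicalagin. The groups did not overlap, and the punicalagin arrays were more widely spread than those of CTSL. The rise was 0.95 ± 0.19 (0.53 to 1.37; 1.93-fold, adjusted p = 0.0345). The call of CTSH was lost with trend and robust variance estimation (adjusted p = 0.0618), with all clusters of the table tested (0.0965) and with each array centred on its median (0.0531). It was also lost without DMSO replicate 2 (adjusted p = 0.145), DMSO replicate 3 (0.109), punicalagin replicate 1 (0.155) or punicalagin replicate 2 (0.154), while the difference stayed between 0.81 and 1.09 in all 14 alternatives (adjusted p 0.00594 to 0.155).

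CTSL is a broad endopeptidase of the lysosome, which also cuts matrix proteins when it is secreted. It stood at 10.85, 10.55 and 10.17 with DMSO and at 11.55, 11.53 and 11.46 with punicalagin. The punicalagin arrays lay within 0.1 of each other, and nearly all the spread was among the DMSO arrays. CTSL rose by 0.99 ± 0.18 (0.57 to 1.40; 1.98-fold, adjusted p = 0.0286). Without DMSO replicate 2 (adjusted p = 0.109), DMSO replicate 3 (0.0676), or punicalagin replicate 1 (0.145), 2 (0.141) or 3 (0.0566) the call was lost, as it was with trend and robust estimation (0.0564) and with all clusters tested (0.0818), with the difference between 0.81 and 1.15 over the 14 alternatives (adjusted p 0.00438 to 0.145).

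The other lysosomal endopeptidases did not pass. CTSD, the aspartic protease that is among the most abundant enzymes of the lysosome, stood at 11.06, 10.32 and 10.54 with DMSO and at 11.68, 11.99 and 11.15 with punicalagin. The difference, 0.96 ± 0.25 (0.39 to 1.54), was close to that of CTSL, but the arrays of both groups were more widely spread and the adjusted p was 0.109. Without DMSO replicate 1 it passed (1.17, adjusted p = 0.0322), and likewise without punicalagin replicate 3 (1.19, 0.0442), in a range of 0.0175 to 0.348 over the alternatives. CTSB is a cysteine protease that cuts within proteins, removes dipeptides from their carboxyl end and can leak from damaged lysosomes. It stood at 10.67, 10.50 and 10.01 with DMSO and at 11.25, 11.25 and 10.84 with punicalagin. All punicalagin arrays were above the DMSO arrays, by 0.72 ± 0.21 (0.25 to 1.18) between the means, with an adjusted p of 0.141. CTSS, the protease that cleaves the last part of the invariant chain in antigen presenting cells, stood at 8.61, 8.23 and 8.12 with DMSO and at 8.93, 9.07 and 8.60 with punicalagin. Here the groups overlapped by a small margin, and the difference was 0.54 ± 0.19 (0.12 to 0.96; adjusted p = 0.242).

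CTSA is a serine carboxypeptidase that also holds β-galactosidase and neuraminidase 1 together in a complex and protects them from breakdown. It stood at 10.08, 9.88 and 9.94 with DMSO and at 10.55, 10.83 and 10.22 with punicalagin, a difference of 0.57 ± 0.18 (0.17 to 0.97; adjusted p = 0.19). CTSO, a little studied cysteine cathepsin, gave intensities of 6.03, 5.69 and 6.04 with DMSO and 6.58, 7.09 and 6.25 with punicalagin, a difference of 0.72 ± 0.22 (0.22 to 1.22; adjusted p = 0.172). In both genes the groups did not overlap, and the passage 8 punicalagin array came closest to DMSO. CTSK, the collagen-cutting protease of osteoclasts, was the exception to the upward direction. It stood at 5.68, 6.97 and 6.82 with DMSO and at 6.31, 5.91 and 6.70 with punicalagin, with a difference of -0.18 ± 0.34 (-0.95 to 0.58; adjusted p = 0.895). Its DMSO array of passage 6 was 1.29 below the highest DMSO array, and the sign turned to 0.06 without DMSO replicate 2 and to 0.01 without punicalagin replicate 2.

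The DMSO array that stood apart did not carry the upward calls. It lay above the mean of the other DMSO arrays in 8 of the 10 genes, by a median of 0.26 against 0.047 over all tested clusters, with CTSD 0.63, CTSL 0.49, CTSS 0.44 and CTSB 0.42 above and CTSK at -1.22. When it was left out, CTSC (2.0, adjusted p = 0.000939), CTSL (1.15, 0.0088), CTSZ (1.05, 0.0139) and CTSH (1.07, 0.0194) passed as before, and CTSD passed too, which made 5 genes. CTSK then differed by -0.59 (adjusted p = 0.216). Over the 14 alternatives by the same kind of test, the adjusted p ran up to 0.015 for CTSC, 0.145 for CTSL and 0.0499 for CTSZ. It ran up to 0.155 for CTSH, 0.348 for CTSD and 0.995 for CTSK. The equal-variance test is not among them.

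Within each passage the direction was the same. The median difference between the punicalagin and the DMSO array was 0.62 in passage 6, with all 10 genes positive, 1.14 in passage 7 and 0.72 in passage 8, each with 9 of 10 positive. CTSC differed by 1.97, 2.35 and 1.67 in passages 6, 7 and 8, and CTSZ by 0.99, 1.29 and 0.94. CTSD and CTSO varied most from passage to passage among the genes that were positive in all 3, with 0.61, 1.67 and 0.61 for CTSD and 0.56, 1.40 and 0.21 for CTSO. CTSK differed by 0.63, -1.06 and -0.12. Among the punicalagin arrays the one of passage 7 was the highest for 7 of the 10 genes and the one of passage 8 the lowest for 8, where these arrays were highest in 36.8% and lowest in 33.1% of all tested clusters.

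With myricetin only CTSC passed the test. In this comparison 0.438% of tested clusters were called higher and 0.0707% lower. CTSC stood at 10.14 and 10.05 on the myricetin arrays of passages 7 and 8, both more than 1 above the highest DMSO array. It rose by 1.32 ± 0.16 (SE, n = 2 and 3; 95% interval 0.97 to 1.66), or 2.49-fold (adjusted p = 0.00393). Without myricetin replicate 1 the adjusted p was 0.111 and without replicate 2 it was 0.0725, with the difference at 1.27 and 1.36 and a range of adjusted p of 0.000302 to 0.111 over 12 alternatives. For 4 of the 10 genes (CTSC, CTSH, CTSO and CTSZ) both myricetin arrays lay above all DMSO arrays, which held for 13.3% of tested clusters. The median over the 10 genes was 0.22, beside 0.003 over all tested clusters. CTSL, at 10.65 and 10.78, lay inside the DMSO range (difference 0.19, interval -0.20 to 0.59), as did CTSB, at 10.29 and 10.42 (-0.04, -0.49 to 0.42). CTSH differed by 0.38 (-0.02 to 0.77), CTSD by 0.48 (-0.08 to 1.05), CTSZ by 0.26 (-0.06 to 0.58) and CTSS by -0.33 (-0.76 to 0.11), and none of these passed.

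With quercetin 4 genes passed, CTSC, CTSL, CTSH and CTSZ, all higher. This comparison shares the DMSO arrays with that of punicalagin. It was fitted on all 10 arrays, and in that fit 5 genes passed with punicalagin, CTSD among them (adjusted p = 0.0363, range 0.0175 to 0.348). Of all tested clusters 2.80% were called higher and 1.13% lower. CTSL stood at 11.69 and 11.82 on the quercetin arrays, above every punicalagin array, and rose by 1.23 ± 0.18 (0.84 to 1.63; 2.35-fold, adjusted p = 0.00242). CTSC, at 10.01 and 10.23, rose by 1.34 ± 0.16 (1.00 to 1.69; 2.54-fold, adjusted p = 0.000606). CTSH, at 10.21 and 10.26, rose by 0.85 ± 0.18 (0.45 to 1.24; adjusted p = 0.0233). CTSZ, at 9.49 and 9.58, rose by 0.69 ± 0.15 (0.37 to 1.01; adjusted p = 0.0228). The call of CTSC held in all 12 alternatives (adjusted p up to 0.0206), and that of CTSL was lost only without quercetin replicate 2 (0.0551, range 3.72e-05 to 0.0551). CTSH and CTSZ lost theirs without DMSO replicate 2 (0.0665 and 0.0509), DMSO replicate 3 (0.0724 and 0.0534), quercetin replicate 1 (0.171 and 0.15) or quercetin replicate 2 (0.225 and 0.254), and with all clusters tested (0.0617 and 0.054). Their ranges were 0.000563 to 0.225 and 0.00236 to 0.254.

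The other members did not pass with quercetin. CTSB, at 10.77 and 11.05, lay above every DMSO array (0.52, interval 0.06 to 0.97, adjusted p = 0.259), as did CTSD, at 11.16 and 11.25 (0.56, 0.00 to 1.13, 0.338). Of the alternatives, array weights alone gave them a call (0.0347 and 0.0199). For 6 of the 10 genes both quercetin arrays lay above all DMSO arrays, which held for 14.6% of tested clusters. The median over the 10 was 0.54, beside -0.036 over all tested. CTSA, at 9.99 and 10.23, and CTSO, at 5.97 and 6.24, overlapped DMSO, with differences of 0.15 (-0.24 to 0.54) and 0.18 (-0.31 to 0.67). CTSS, at 7.83 and 8.24, and CTSK, at 6.08 and 6.21, lay below the DMSO mean by differences of -0.29 (-0.72 to 0.14) and -0.34 (-1.08 to 0.39). Within passages 7 and 8, CTSL differed from the DMSO array of its passage by 1.14 and 1.65 with quercetin and by 0.10 and 0.61 with myricetin.

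**Figure D2:**
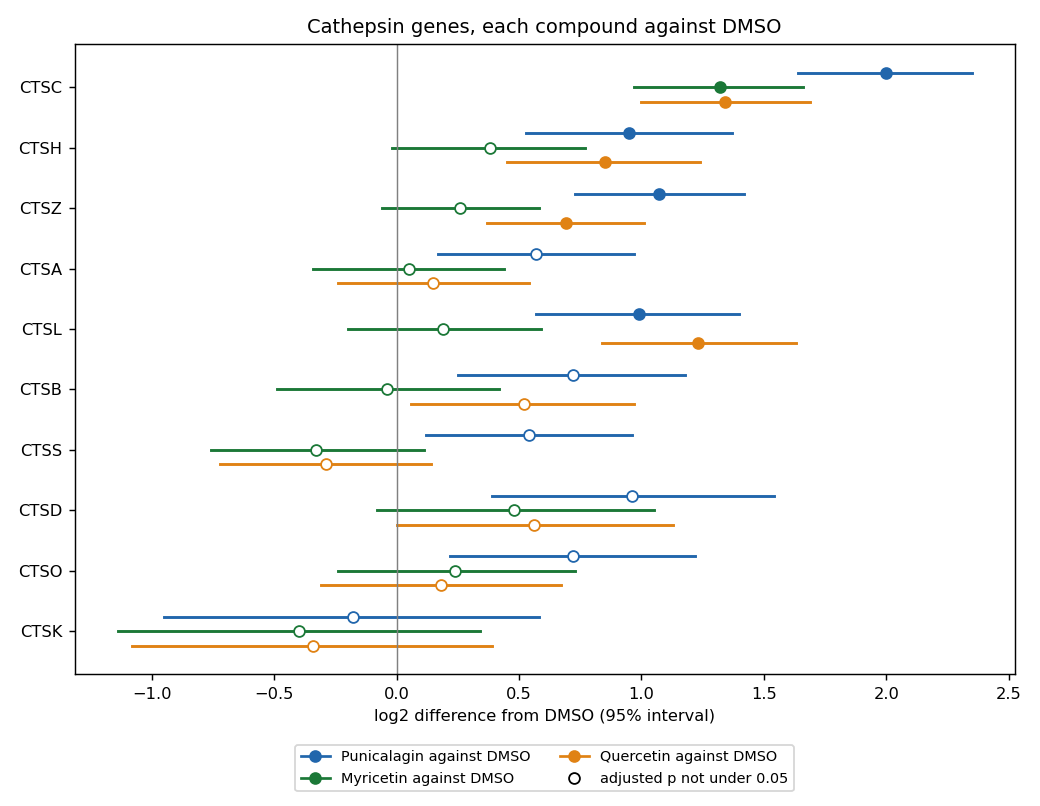
Difference of each compound from DMSO in log2 intensity for the 10 cathepsin genes, with 95% intervals from limma and filled points for an adjusted p under 0.05. CTSC lies right of 0 with all 3 compounds (2.0, 1.32 and 1.34), CTSL, CTSH and CTSZ pass with punicalagin and quercetin, and the intervals of CTSK include 0 throughout.

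Set against each other, the compounds gave few calls among the cathepsin genes. With 2 or 3 arrays in each group, a gene that did not pass is not shown to be alike. Each of 3 pairs of compounds was tested for the 10 genes, with p-values adjusted over all clusters in each pair. Punicalagin lay above myricetin in all 10 genes, where it did in 37.5% of all tested clusters. The median was 0.63 beside -0.060 over all tested clusters. CTSZ passed (0.82 ± 0.15, interval 0.49 to 1.14, adjusted p = 0.0411), where 0.519% of tested clusters were called higher. The call of CTSZ was lost without punicalagin replicate 1 (0.122) or 2 (0.114), without myricetin replicate 1 (0.238) or 2 (0.576), with the passage as a block (0.0501), with trend and robust estimation (0.0859) and with all clusters tested (0.12), in a range of 0.0108 to 0.576. CTSS (0.87, 0.44 to 1.30, adjusted p = 0.0838), CTSL (0.80, 0.40 to 1.19, 0.0806), CTSB (0.76, 0.30 to 1.21, 0.159) and CTSC (0.68, 0.34 to 1.02, 0.0875) had intervals above 0 and did not pass.

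Punicalagin lay above quercetin in 9 of the 10 genes, where it did in 47.5% of all tested clusters. The median was 0.39 beside -0.014 over all tested clusters. CTSC and CTSS passed, where 2.06% of tested clusters were called higher. CTSC was 0.65 ± 0.16 higher (0.31 to 1.00, adjusted p = 0.0418). CTSS was 0.83 ± 0.20 higher (0.40 to 1.26, adjusted p = 0.0403), with 8.93, 9.07 and 8.60 on the punicalagin arrays against 7.83 and 8.24. Both calls were lost with the passage as a block (0.0678 for each gene), with trend and robust variance estimation (0.081 for CTSC and 0.0525 for CTSS), with all clusters tested (0.0905 and 0.0966), with each array centred (0.0588 and 0.0556), and without punicalagin replicate 1 (0.107 for CTSC and 0.124 for CTSS), punicalagin replicate 2 (0.101 and 0.11), quercetin replicate 1 (0.461 and 0.487) or quercetin replicate 2 (0.141 and 0.0943). The ranges over 12 alternatives were 0.00979 to 0.461 and 0.00602 to 0.487. CTSL was lower with punicalagin than with quercetin, by a difference of -0.25 (-0.64 to 0.15) that did not pass. CTSH differed by 0.10 (-0.29 to 0.50) and CTSB by 0.20 (-0.25 to 0.66).

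Myricetin and quercetin are flavonols that differ by an additional hydroxyl group on the B ring of myricetin. CTSL was the single cathepsin gene that passed between them. It stood at 10.65 and 10.78 with myricetin and at 11.69 and 11.82 with quercetin, so that myricetin was lower by a log2 difference of -1.04 ± 0.20 (-1.47 to -0.61), and quercetin 2.06-fold higher (adjusted p = 0.0244). In this pair 1.16% of tested clusters were lower with myricetin. All clusters tested gave 0.0713. With 2 arrays in each group, leaving out any 1 of them ended the call: without myricetin replicate 1 or 2 the adjusted p was 0.229 or 0.146, and without quercetin replicate 1 or 2 it was 0.162 or 0.231, while the difference stayed between -1.11 and -0.98 (adjusted p 0.000273 to 0.231 over 11 alternatives). CTSB, CTSH and CTSZ also had lower means with myricetin, with differences of -0.55 (-1.05 to -0.06), -0.47 (-0.91 to -0.04) and -0.43 (-0.79 to -0.08) that did not pass. CTSC differed by -0.03 (-0.40 to 0.35), CTSS by -0.04 (-0.51 to 0.44), CTSD by -0.08 (-0.70 to 0.54) and CTSA by -0.10 (-0.53 to 0.33).

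**Figure D3:**
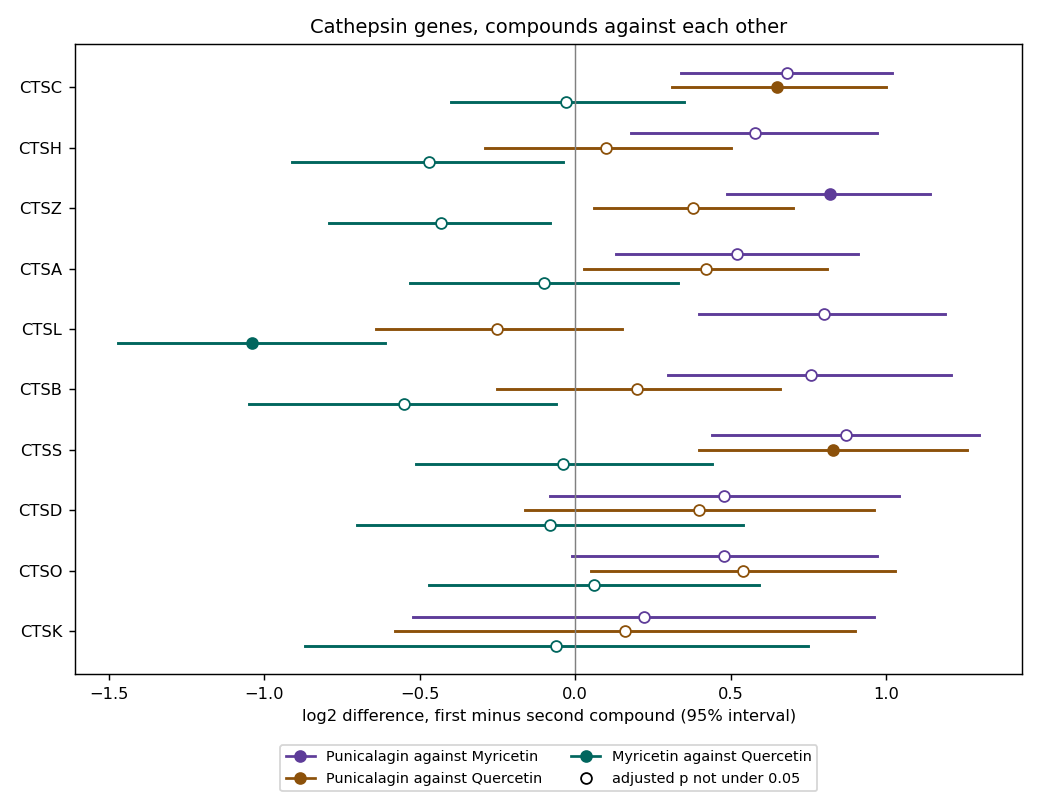
Differences in log2 intensity between compounds (the first named minus the second) for the 10 cathepsin genes, with 95% intervals and filled points for an adjusted p under 0.05. Filled points stand at CTSZ for punicalagin against myricetin (0.82), at CTSC and CTSS for punicalagin against quercetin (0.65 and 0.83) and at CTSL for myricetin against quercetin (-1.04).

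CTSC, CTSZ, CTSH, CTSD and CTSA had the same order of means, from punicalagin through quercetin and myricetin down to DMSO. CTSB, CTSK, CTSL, CTSO and CTSS had others. CTSC was highest with punicalagin (mean 10.77), followed by quercetin (10.12) and myricetin (10.09), which did not differ beyond their spread, and was lowest with DMSO (8.78). CTSL was highest with quercetin (11.75), where both arrays lay above every punicalagin array (mean 11.51), a difference that did not pass. Then came myricetin (10.71) and DMSO (10.52), whose difference did not pass either. CTSZ ran from punicalagin (9.92) through quercetin (9.54) and myricetin (9.10) to DMSO (8.84), and CTSH from punicalagin (10.34) and quercetin (10.24) to myricetin (9.76) and DMSO (9.39). In these 2 genes no neighbours in the order passed the test. For CTSS punicalagin (8.87) stood above DMSO (8.32), and quercetin (8.03) and myricetin (7.99) were lowest. No neighbours in this order passed for CTSS.

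Across the 10 arrays the cathepsin genes other than CTSK went together. All 36 pairs without CTSK had a positive Pearson correlation, with a median of 0.80, and all 9 pairs with CTSK a negative one, with a median of -0.34. CTSA and CTSO had the highest value, 0.96, then CTSH and CTSZ with 0.92. These 10 arrays carry the group differences described above, so the correlation was also taken over deviations from the group means. There 34 of 36 pairs without CTSK stayed positive, with a median of 0.67, and the 9 pairs with CTSK were again all negative, with a median of -0.63, down to -0.82 for CTSD with CTSK. CTSL with CTSC (-0.19) and CTSL with CTSZ (-0.12) were the 2 that turned negative. The DMSO array of passage 6, which stood apart, had CTSK at -1.22 and CTSD at 0.63 from the mean of the other DMSO arrays. How much of the negative values of CTSK came from that array was not tested. The arrays of a passage, an RNA sample and a normalization are shared by all genes, and these values are a description.

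**Figure D4:**
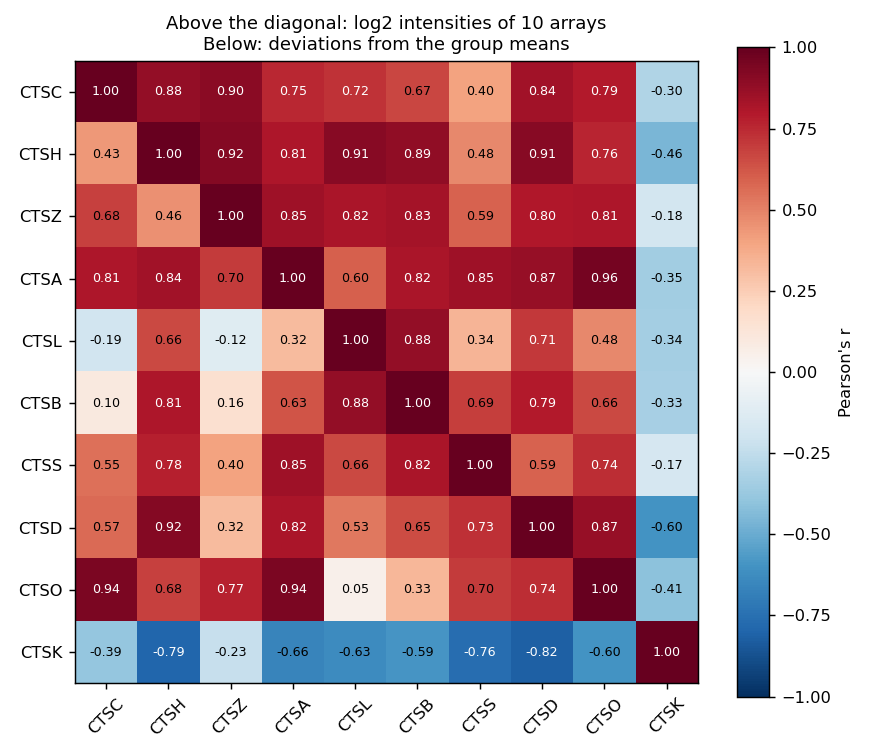
Pearson correlation between cathepsin genes, above the diagonal over the log2 intensities of the 10 arrays and below it over deviations from the means of the 4 groups. CTSK is negative with each of the others on both sides, and CTSL with CTSC falls from 0.72 to -0.19 once the group means are taken out.

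The genes whose pattern over the 10 arrays was nearest to the 3 cathepsins with the largest difference were found among all clusters with 1 symbol. For CTSC they were SDC2, a cell surface heparan sulfate proteoglycan (r = 0.996), PTDSS1, a phosphatidylserine synthase (0.978), and ABHD12, a lipase of lysophosphatidylserine (0.975). SDC2 had means of 8.44 with DMSO, 10.40 with punicalagin, 9.60 with myricetin and 9.72 with quercetin. For CTSZ they were EDEM1 (0.986), which takes part in the disposal of misfolded glycoproteins, BTN3A1 (0.986) and TMED5 (0.980). For CTSL they were MET, the receptor of hepatocyte growth factor (0.975), CD68, a lysosomal glycoprotein of macrophages (0.970), and COL4A2, a basement membrane collagen chain (0.967). CD68 had means of 10.18, 11.17, 10.35 and 11.31 in the same order of groups. These genes were picked by correlation over the same 10 arrays. A likeness of their group means to those of the cathepsin came with that choice and is a description.

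A list of genes that sort lysosomal proteins or process cathepsins holds the mannose 6-phosphate pathway, LGMN and PSAP, and also SCARB2, whose known cargo is no cathepsin. Of its 9 genes 8 were measured, and 3 passed with punicalagin, all higher, beside the 2.13% of tested clusters called higher. The median over the 8 was 0.62. SCARB2, the receptor that brings β-glucocerebrosidase to the lysosome, stood at 8.54, 8.39 and 8.15 with DMSO and at 9.96, 9.95 and 9.69 with punicalagin. It rose by 1.51 ± 0.16 (1.15 to 1.87, 2.85-fold, adjusted p = 0.00259). The call held in all 14 alternatives (0.000329 to 0.0299) and not by the equal-variance test after adjustment. The mannose 6-phosphate receptors rose as well, IGF2R, the cation-independent one, by 1.02 ± 0.17 (adjusted p = 0.0177) and M6PR, the cation-dependent one, by 0.93 ± 0.14 (0.0119). IGF2R lost its call with all clusters tested (0.0574) and without DMSO replicate 2 (0.0558) or punicalagin replicate 1 (0.0879) or 2 (0.101), and M6PR without the same arrays (0.0667, 0.0772 and 0.0713). The ranges over the alternatives were 0.00333 to 0.101 and 0.00164 to 0.0772. PSAP, the saposin precursor, differed by 0.86 (adjusted p = 0.0992). LGMN, the legumain that cleaves several procathepsins, differed by -0.35 (adjusted p = 0.71).

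**Figure D5:**
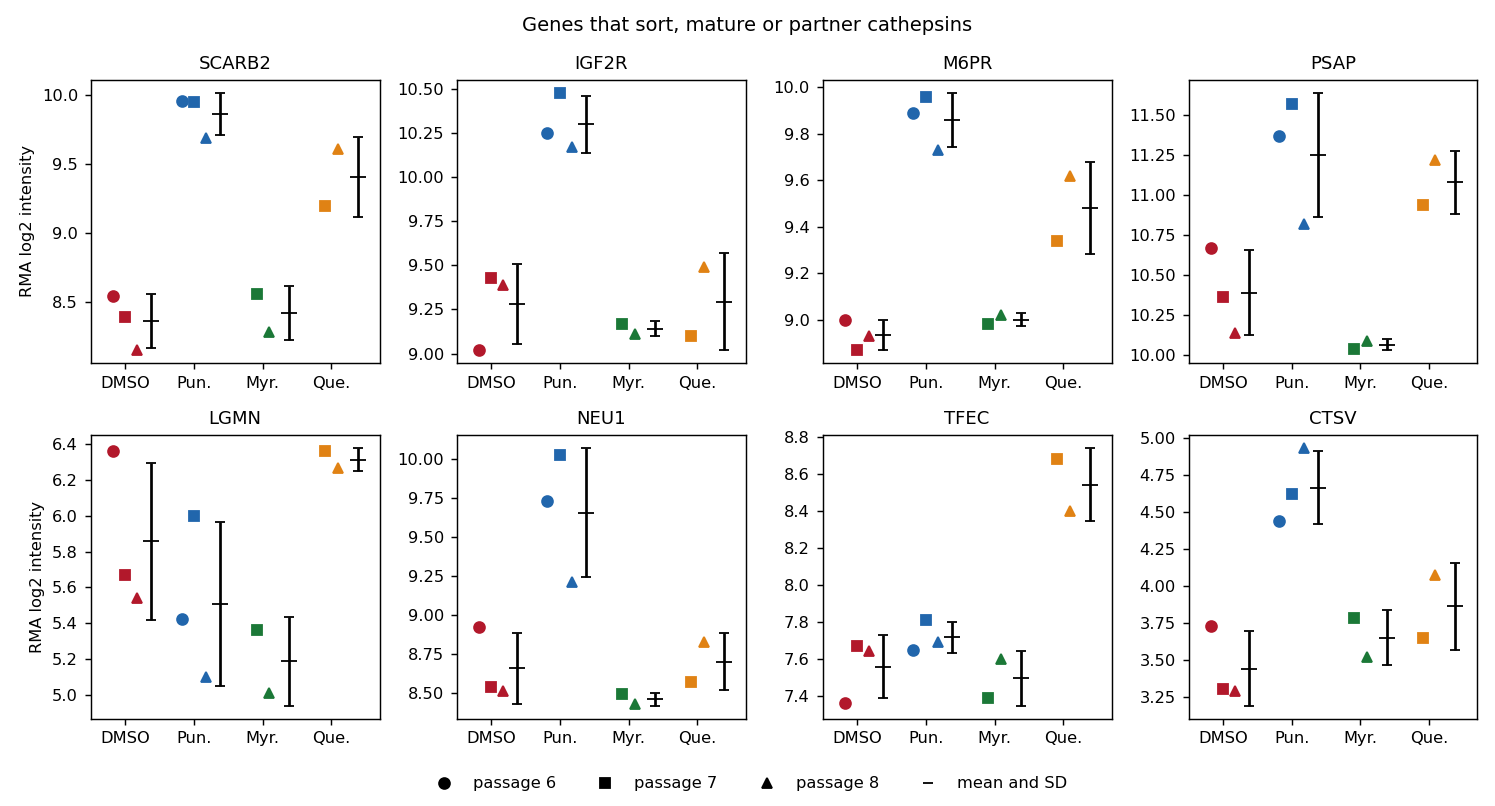
RMA log2 intensity of SCARB2, IGF2R, M6PR, PSAP, LGMN, NEU1, TFEC and CTSV on the 10 arrays, with the passage as marker shape and the mean and SD of each group as bars, on axes of their own that do not start at 0. SCARB2 is at 9.69 to 9.96 with punicalagin and at 8.15 to 8.54 with DMSO, and TFEC stands apart with quercetin alone, at 8.68 and 8.40.

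With quercetin SCARB2 was the single gene of that list that passed (1.05 ± 0.18, adjusted p = 0.00645), and the call was lost without quercetin replicate 2 (0.135, range 0.000548 to 0.135). With myricetin none of the 8 passed, and the median was -0.15. SCARB2 stood at 8.56 and 8.28 with myricetin and was lower than with quercetin by a log2 difference of -0.99 ± 0.19 (adjusted p = 0.029), the same direction as for CTSL. That call was lost without either myricetin array (0.137 and 0.271) or either quercetin array (0.0864 and 0.315), and with all clusters tested (0.0772), in a range of 0.00112 to 0.315. Against myricetin, 0.519% of tested clusters were called higher with punicalagin. Of the 8, 4 were called higher (SCARB2, IGF2R, M6PR and PSAP), with adjusted p of 0.0239, 0.024, 0.0268 and 0.0461. Each of these 4 was lost without punicalagin replicate 1 or 2 or myricetin replicate 1 or 2, where the adjusted p ran from 0.108 to 0.576. All 4 were also lost with all clusters tested (0.0926 to 0.129), and M6PR (0.0521) and PSAP (0.0621) with the passage as a block. M6PR (0.0679) and PSAP (0.0738) were lost with trend and robust estimation, and PSAP with passages 7 and 8 alone (0.0574). Against quercetin, punicalagin was higher in IGF2R (1.01 ± 0.18, adjusted p = 0.0098) and NAGPA (0.71 ± 0.16, 0.0334), where 2.06% of tested clusters were called higher. The call of IGF2R was lost without quercetin replicate 1 (0.204, range 0.00107 to 0.204). That of NAGPA was lost without punicalagin replicate 1 (0.11) or 2 (0.0886) or quercetin replicate 1 (0.38) or 2 (0.147), with passages 7 and 8 alone (0.0563) and with all clusters tested (0.0755).

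Among the 4 transcription factors of lysosomal genes none passed with punicalagin. MITF differed by 0.48 (0.17 to 0.78; adjusted p = 0.135) and TFE3 by -0.34 (-0.65 to -0.02; 0.369). With quercetin TFEC, a relative of TFEB expressed in macrophages, rose from 7.36, 7.67 and 7.64 on the DMSO arrays to 8.68 and 8.40, by 0.99 ± 0.15 (adjusted p = 0.00369). The call was lost without quercetin replicate 1 (0.0864, range 0.000539 to 0.0864). TFEC was 7.65, 7.81 and 7.69 with punicalagin and 7.39 and 7.60 with myricetin. It was lower than with quercetin in both, by differences of -0.82 ± 0.15 for punicalagin (adjusted p = 0.0131) and -1.05 ± 0.17 for myricetin (0.0105). The first call was lost without punicalagin replicate 1 (0.0507) or quercetin replicate 1 (0.245) or 2 (0.0581), and the second without myricetin replicate 1 (0.156) or 2 (0.0673) or quercetin replicate 1 (0.16) or 2 (0.0567).

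The partners of cathepsin A are NEU1 and GLB1, and neither passed with punicalagin against DMSO, with differences of 1.00 (0.49 to 1.51; adjusted p = 0.0601) and 0.33 (-0.33 to 0.98; 0.748). NEU1 was higher with punicalagin than with myricetin (1.20 ± 0.22, adjusted p = 0.0461) and than with quercetin (0.96 ± 0.22, 0.0364). Both calls of NEU1 were lost with the passage as a block (0.0621 and 0.0592), with all clusters tested (0.129 and 0.0923), without punicalagin replicate 1 (0.16 and 0.117) or 2 (0.164 and 0.0934), and without replicate 1 (0.259 and 0.401) or 2 (0.576 and 0.141) of the flavonol. The call of NEU1 against myricetin was also lost with passages 7 and 8 alone (0.0582) and with trend and robust estimation (0.0718). That against quercetin was also lost with each array centred (0.0524). Of 6 granule proteins of the serine protease family, none passed with any compound against DMSO. AZU1, a relative without protease activity, differed by 0.35 (adjusted p = 0.364) and CTSG by -0.30 (0.686) with punicalagin, beside the 2.0 of CTSC. AZU1 was higher with punicalagin than with myricetin (0.81 ± 0.14, adjusted p = 0.0374), a call lost with the passage as a block (0.053), with all clusters tested (0.111), and without punicalagin replicate 1 (0.156) or 2 (0.114) or myricetin replicate 1 (0.245) or 2 (0.554). The AZU1 call was also lost with passages 7 and 8 alone (0.0559) and with trend and robust estimation (0.0694). Of the genes for the loading of class II molecules, where CTSS and CTSL act, 3 of the 4 listed were measured and none passed. IFI30, a lysosomal thiol reductase, came close with 0.90 (0.46 to 1.34; adjusted p = 0.0507), and HLA-DMA differed by 0.29 (0.738).

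None of 9 cathepsin inhibitors passed with any compound against DMSO. CST3, the secreted cystatin C, differed by 0.53 (0.07 to 0.99; adjusted p = 0.311) and CSTA by 0.44 (-0.32 to 1.19; 0.699) with punicalagin. The median over the 9 was 0.15 with punicalagin, 0.10 with myricetin and -0.01 with quercetin. Of the 5 cathepsins outside the 10, CTSV alone passed with punicalagin. It is the closest relative of CTSL, and its cluster was dim, at 3.73, 3.30 and 3.29 with DMSO and 4.44, 4.62 and 4.93 with punicalagin, below the array medians of 5.14 to 5.25. The difference was 1.22 ± 0.19 (adjusted p = 0.0131), and it was lost without DMSO replicate 2 (0.0705) or punicalagin replicate 2 (0.0847), in a range of 0.00209 to 0.0847. How far the probes of CTSV and CTSL take up each other's RNA was not tested.

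Of the 10 macrophage markers 8 lay above DMSO with punicalagin and 1 passed, beside the 2.13% of tested clusters called higher. CD14 differed by 1.73 (adjusted p = 0.161), CD68 by 0.99 (0.0513), CSF1R by 0.76 (0.15), ITGAM by 0.67 (0.265) and PTPRC by 0.60 (0.134). ITGAX differed by 0.12 (0.888) and MRC1 by 0.02 (0.981), while SPI1 (-0.47, 0.217) and LYZ (-0.06, 0.97) lay below DMSO. With punicalagin the scavenger receptor CD163 rose by 1.89 ± 0.20 (adjusted p = 0.0027). It was dim, at 4 to 4.41 with DMSO and at 5.73 to 6.43 with punicalagin, and below the upper quartile of every array. PECAM1 rose by 1.24 ± 0.16 (0.00589) and VWF, dim at 5.43 to 5.67, by 0.86 ± 0.14 (0.0172). With quercetin CD163 rose by 1.85 ± 0.20 (0.000414) and CD68 by 1.13 ± 0.21 (0.0103), and PTPRC, the leukocyte antigen CD45, fell by 0.79 on the log2 scale (0.0233). With myricetin no marker passed. These marker genes were not refitted under the alternatives.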

How the data were processed

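Affymetrix Human Gene 1.0 ST arrays of PMA-treated THP-1 cells were used. Each deposited value is the log2 intensity of 1 transcript cluster, made by the authors from scanned arrays by RMA (background correction, quantile normalization and probe summary) with Partek 7.0 and, per the labels, Affymetrix Expression Console. Whether the 10 arrays were normalized together, and the genome build of the probes, are not given in the sources used here. Of 33297 clusters, 19460 had 1 symbol, 1754 several and 12083 none in the probe table. Symbols were updated through Entrez IDs for 19429 clusters. Groups and passages came from the labels. Differences were fitted with limma 3.58.1 (R 4.3.3), moderated tests and 95% intervals, without a block, and adjusted by Benjamini and Hochberg over 21214 clusters at a threshold of 0.05. Punicalagin against DMSO used their 6 arrays, and the other 5 comparisons all 10 arrays with a shared spread. Every p-value given is such an adjusted p. The 2 or 3 arrays in each group limit the precision. Passages are cultures of 1 cell line, so the tests measure the spread between passages. The fit was tested on simulated data. All 10 cathepsins were named, and of the other genes up to 4 of each list that passed with punicalagin, or 2 with the largest difference where none passed, those that passed with another compound, and the 3 genes most correlated with each of the 3 cathepsins that moved most. Genes called between compounds were named after their values were seen. The members and lists were chosen with earlier results of these data known. Passage numbers were checked as pairs over all tested clusters. The deviations of the punicalagin and the DMSO array of the same passage correlated at 0.362, -0.097 and 0.319. Those of different passages correlated at -0.442 to 0.331. With 3 same-passage values the check could not decide whether the passages pair the arrays. The main fits had no block, and fits with the passage as a block are given beside them.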

Additional observations from a re-analysis of the deposited data

How the results depend on the processing

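The 10 cathepsins and the listed genes that passed were refitted with the passage as a block, with passages 7 and 8 alone, with all 10 arrays (punicalagin against DMSO), with trend and robust variance estimation, with array weights, with dim clusters left out, with all clusters tested, without each array in turn and, chosen after seeing the data, with each array centred on its median. Other clusters of a member could not be tried, since each has 1. The punicalagin count of 4 higher went to 2 with trend and robust estimation, 2 with all clusters and 2 by an equal-variance test of the groups (unadjusted, over 2-fold), 0 by that test after adjustment, and between 2 and 5 without single arrays. Over all clusters that test called 350 higher and 24 lower, and 0 and 0 after adjustment. With the passage as a replicate block 5 were higher, since CTSB passed (0.72, adjusted p = 0.046). With array weights 6 were higher, since CTSB (0.041) and CTSD (0.0175) passed. The block gave 1 with myricetin and 4 with quercetin against DMSO, 0 between punicalagin and either flavonol, and 1 lower between the flavonols. Myricetin had 1, and 0 to 1 without single arrays. Quercetin had 4, and 2 with all clusters and 1 to 4 without single arrays. Punicalagin against myricetin had 1, 0 with the block, with trend and robust estimation and with all clusters, 5 with array weights, and 0 to 3 without single arrays. Punicalagin against quercetin had 2, 1 with passages 7 and 8, 0 with the block, trend and robust estimation, all clusters and centring, and 0 to 2 without single arrays. Myricetin against quercetin had 1 lower, 4 with array weights, 0 with all clusters, and 0 to 0 without single arrays. No cathepsin was called lower against DMSO in any alternative. CTSD passed with punicalagin with all 10 arrays (0.0363), passages 7 and 8 (0.0311) and array weights (0.0175). With quercetin, CTSB (0.0347) and CTSD (0.0199) were also called higher with array weights.

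In 20 cases the sign of a small difference turned, and none of these differences was called. With punicalagin against DMSO, CTSK ranged from -0.59 to 0.06 without single arrays (0.06 without DMSO replicate 2, 0.01 without punicalagin replicate 2). With myricetin against DMSO, CTSB was 0.07 with the block, 0.10 with passages 7 and 8 and 0.04 with array weights, and ranged from -0.23 to 0.10 without single arrays (above 0 without DMSO replicate 1 or 2 or myricetin replicate 1). Between punicalagin and quercetin, without single arrays CTSH ranged from -0.04 (punicalagin replicate 2 left out) to 0.25, and CTSK from -0.04 (punicalagin replicate 3) to 0.36. Between myricetin and quercetin the ranges were -0.22 to 0.02 for CTSA, -0.14 to 0.08 for CTSC, -0.25 to 0.09 for CTSD, -0.19 to 0.07 for CTSK, -0.08 to 0.20 for CTSO and -0.24 to 0.16 for CTSS, with a turned sign without myricetin replicate 1 (CTSD, CTSK, CTSO), myricetin replicate 2 (CTSC, CTSS), quercetin replicate 1 (CTSO) or quercetin replicate 2 (CTSA, CTSC, CTSK, CTSS). The causes were not tested.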
